A study of Mus musculus with 12 samples.

Results

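Transcripts of 10 B lineage genes were followed in cultures of cytotoxic T lymphocytes (CTL). The genes were Jchain, Ighm, Igk, Iglv1, Bank1, Cd79a, Cd79b, Pax5, Blk and Cd22, out of 18193 genes that the array names. They were chosen by name, with earlier measured AktI differences of these arrays known, and every probe set annotated to one of them was taken. That gave 32 of 45037 probe sets, of which 15 belong to Ighm, 4 each to Igk and Iglv1, 2 each to Pax5 and Cd22, and 1 each to the other 5 genes. Because the list was made with the AktI results in view, the AktI values of these probe sets are a description and carry no test.

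A B cell makes an antigen receptor from an immunoglobulin heavy chain and a kappa or lambda light chain, which reaches the surface with the signalling chains encoded by Cd79a and Cd79b. Activated B cells that become plasma cells shut down much of the surface and signalling programme, Pax5 included, and fill with RNA for secreted immunoglobulin and for the J chain, which joins IgM and IgA into polymers. CTL are CD8+ T cells and rearrange T cell receptor genes in place of immunoglobulin genes, although constant regions of the heavy chain locus can be transcribed in lymphocytes without a rearranged variable segment.

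The cultures fall into 4 groups of 3 arrays, all of C57BL/6 background. Pdpk1-null CTL were grown from PDK1fl/fl TamoxCre mice and Cre control CTL from TamoxCre mice, which carry the same ROSA26-driven, tamoxifen-activated Cre and intact Pdpk1. Both received 0.6 μM 4OHT, the agent that activates the Cre, for the last 72 hr. In a separate experiment AktI CTL and untreated CTL came from the same 3 wild-type mice, each culture being divided and one share given 1 μM of the Akt inhibitor AktI-1/2 for the last 48 hr. All cells were activated with 0.5 μg/ml CD3 antibody for 48 hr and then held for 5 days in medium with 20 ng/ml IL-2. For the Akt experiment the study also places IL-2 in the activation step, which its account of the Pdpk1-deleted CTL does not. For the CTL of the Akt arrays and for Pdpk1-deleted CTL the study names splenocytes as the cells that were activated. The labels also say splenic T cells, and the general methods describe a magnetic isolation of CD8+ T cells. How many B lineage cells entered these cultures is not given in the sources used here. The ages of the mice are likewise not given, and the methods state only that mice were matched for age and sex.

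Arrays of a group correlated with r from 0.9958 to 0.9978. Array medians of the log2 signal lay between 4.60 and 4.62 in the Pdpk1 experiment and between 5.10 and 5.14 in the Akt experiment, so levels were read against the background of each array and were not compared between experiments. That background is the 95th percentile of 80 olfactory and vomeronasal receptor probe sets, genes of sensory neurons, and lay at 4.48 to 4.57 in Pdpk1-null, 4.40 to 4.53 in Cre control, 4.86 to 5.06 in AktI and 4.91 to 5.22 in untreated arrays. The T cell identity of all cultures was plain, since all 13 measured T cell markers exceeded background on all 12 arrays. The 2 probe sets of Pdpk1 itself read 8.67 to 9.09 in arrays labelled Pdpk1-null and 8.69 to 9.03 in Cre control arrays. The files do not place these probes against the deleted exons, so they do not check the deletion. Pdpk1-null below therefore stands for the arrays labelled so.

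Start-site sequences were available for 5 of the 10 genes in RefSeq (GRCm38.p6), each running from 250 bases before to 50 after the start of the gene. Those of Jchain and Bank1 are shown because both transcripts were lower with AktI in all 3 mice, and that of Cd79a because its signal stayed near background. Capitals mark matches, on either strand, to the motifs searched, namely the octamer ATGCAAAT bound by Oct factors in immunoglobulin promoters, the forkhead site GTAAACA bound by Foxo factors, the TATA box TATAAA and the PU.1-type ETS core GAGGAA. The Jchain sequence lies at chr5:88527848-88528147 on the minus strand, Bank1 at chr3:136326017-136326316 on the minus strand and Cd79a at chr7:24897247-24897546 on the plus strand.
Jchain: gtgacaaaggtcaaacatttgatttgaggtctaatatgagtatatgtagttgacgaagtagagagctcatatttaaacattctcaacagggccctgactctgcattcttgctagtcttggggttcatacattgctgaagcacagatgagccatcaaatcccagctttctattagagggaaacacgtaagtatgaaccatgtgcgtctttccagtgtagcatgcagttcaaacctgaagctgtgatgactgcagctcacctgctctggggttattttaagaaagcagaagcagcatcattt
Bank1: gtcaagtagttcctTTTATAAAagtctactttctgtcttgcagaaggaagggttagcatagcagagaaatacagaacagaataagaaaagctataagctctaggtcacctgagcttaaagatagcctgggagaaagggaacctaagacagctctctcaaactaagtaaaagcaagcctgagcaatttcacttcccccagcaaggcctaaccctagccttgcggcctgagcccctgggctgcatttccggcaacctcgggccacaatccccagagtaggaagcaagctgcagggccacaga
Cd79a: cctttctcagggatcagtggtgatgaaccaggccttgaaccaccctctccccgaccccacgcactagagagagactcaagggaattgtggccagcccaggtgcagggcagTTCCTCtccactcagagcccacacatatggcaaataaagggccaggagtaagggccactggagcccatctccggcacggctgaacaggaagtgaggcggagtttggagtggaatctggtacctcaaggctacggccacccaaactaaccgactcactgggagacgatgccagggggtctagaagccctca
The octamer and the forkhead letters were in 0 of the 5 windows, against 1.74% and 3.65% of 32851 promoters of the same table. TATAAA was in 1 of the 5, Bank1, where its forms on both strands overlap 234 to 236 bases before the start, against 13.6% of all promoters. GAGGAA was in 1 of the 5, Cd79a, on the minus strand, against 28.3% of all promoters. These are matches of letters, and an absence says only that the letters are not in this window.

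Of the 32 probe sets, 19 exceeded background on all 3 arrays of at least 1 group and 13 did in no group. The groups differed in how many did so. In the Pdpk1 experiment 5 probe sets were above background in Pdpk1-null and 5 in Cre control CTL. In the Akt experiment 13 were above in AktI and 17 in untreated CTL. Those above background in both groups of the Pdpk1 experiment were 3 of Ighm and 1 each of Cd79b and Pax5. A stricter background, the 99th percentile of the receptors, left 7 of the 19.

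**Figure D1:**
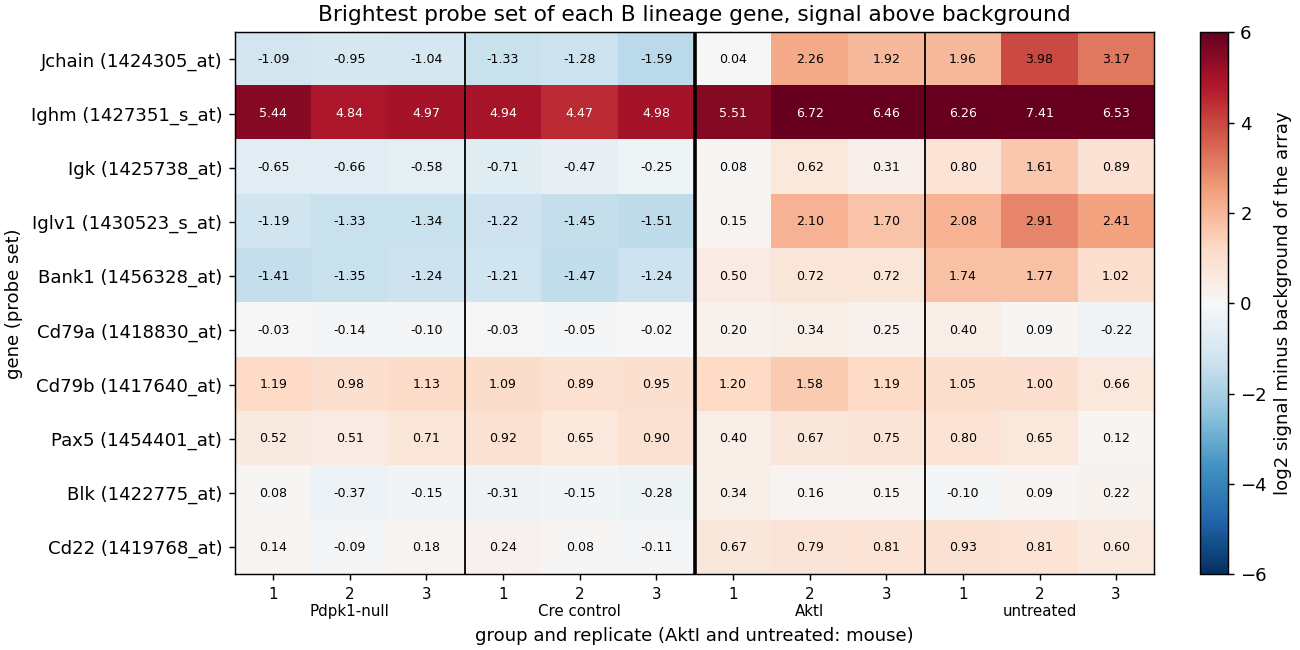
Log2 signal minus background for the brightest probe set of each gene, 1 row per gene and 1 column per array, with the 2 experiments parted by the thick line, background at 0 and the colour scale capped at 6. Jchain, Iglv1 and Bank1 lie 0.95 to 1.59 below background throughout the Pdpk1 experiment and above it on all 6 arrays of the Akt experiment, whereas Ighm is at least 4.47 above it throughout.

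Jchain, the polypeptide that links IgM and IgA and a leading transcript of antibody-secreting cells, had log2 signals of 5.10, 7.12 and 6.85 in AktI CTL of mice 1, 2 and 3, against 6.88, 8.90 and 8.39 in untreated CTL of the same mice. It was lower with AktI in each mouse, but the groups overlapped, because mouse 1 lay far under the other mice in both. The within-mouse differences were -1.78, -1.77 and -1.55, a mean of -1.70 ± 0.13 (SD, n = 3 mice), so 29.0%, 29.3% and 34.2% of the untreated signal was left. Between mice the signal spanned 2.03 log2 units in AktI and 2.01 in untreated CTL, a 4.07-fold and a 4.04-fold range. The spread between mice was thus wider than the difference between treatments, and the difference varied little from mouse to mouse. In bulk RNA, fewer B lineage cells and less RNA per cell cannot be told apart.

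The lambda light chain behaved in a like way. The brightest probe set of Iglv1, a lambda variable segment (1430523_s_at), had log2 signals of 5.21, 6.97 and 6.62 in AktI CTL, against 7.00, 7.83 and 7.64 in untreated CTL. The groups did not overlap, and mouse 1 was again the lowest of both. Its within-mouse differences were -1.80, -0.86 and -1.01, a mean of -1.22 ± 0.50. A probe set shared by Iglv1 and the constant segment Iglc1 (1424931_s_at) had signals of 4.26, 5.26 and 5.16 with AktI and of 5.42, 6.50 and 5.73 in untreated CTL, a mean difference of -0.99 ± 0.36. Mouse 1 with AktI was below background there. The remaining 2 Iglv1 probe sets were below background in every group by the same criterion.

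Igk, the kappa light chain locus, has 4 probe sets annotated to it alone. The brightest (1425738_at) read 5.13, 5.48 and 5.24 in AktI CTL, against 5.72, 6.52 and 6.11 in untreated CTL. The groups did not overlap, and the AktI signals lay within 0.62 of background. The mean within-mouse difference was -0.83 ± 0.23. A second Igk probe set (1452557_a_at) had signals of 5.03, 5.24 and 5.08 with AktI and 5.12, 6.19 and 5.61 without, with differences of -0.09 in mouse 1, -0.95 in mouse 2 and -0.53 in mouse 3. The other 2 Igk probe sets did not exceed background in any group.

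Far brighter kappa signals came from 3 probe sets that name Igkc, the kappa constant segment, together with several variable segments, and that are not annotated to Igk. One of them (1427455_x_at) had log2 signals of 7.30, 9.80 and 9.34 in AktI CTL, against 9.80, 11.20 and 10.67 in untreated CTL. Its within-mouse differences were -2.50, -1.40 and -1.33, a mean of -1.74 ± 0.65, and mouse 1 was once more the lowest in both groups. Over the 3 probe sets, signals ran between 6.92 and 9.80 with AktI and between 9.34 and 11.20 without. They name the same constant segment and are not counted as separate measurements.

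**Figure D2:**
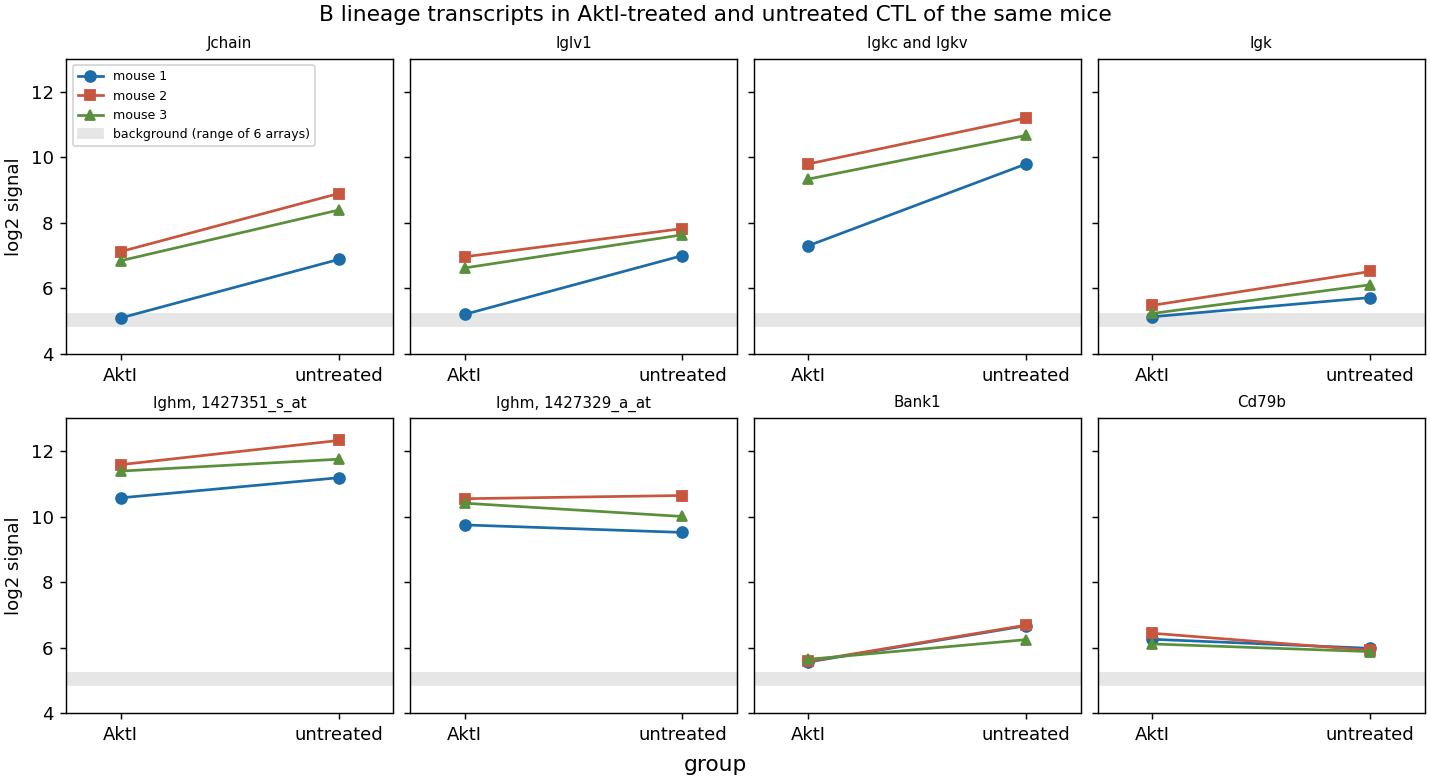
Log2 signals of 8 probe sets in AktI CTL (left of each panel) and untreated CTL (right), with a line joining the cultures of 1 mouse and the grey band giving the range of background over the 6 arrays. The lines of Jchain, Iglv1, the Igkc probe set and Igk climb towards the untreated side in all 3 mice with mouse 1 lowest, Bank1 does so with mouse 1 at the level of mouse 2, and Cd79b runs slightly the other way.

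Ighm, the mu heavy chain, was the brightest of the 10 genes in every group, and its probe sets disagreed. The brightest (1427351_s_at) read 10.57, 11.58 and 11.39 in AktI CTL, against 11.18, 12.32 and 11.75 in untreated CTL. It was lower with AktI in all 3 mice by 0.57 on average (SD 0.19), with overlapping groups. The next (1427329_a_at) read 9.74, 10.54 and 10.41 with AktI and 9.52, 10.64 and 10.00 without. That one differed by +0.23 in mouse 1, -0.10 in mouse 2 and +0.41 in mouse 3, a mean of 0.18 ± 0.26. The same RNA was thus read as lower by one bright Ighm probe set and as no lower by the other. The files do not tell which part of the locus each interrogates. Another (1427870_x_at) lay between 7.30 and 7.40 with AktI and between 7.40 and 7.61 without, and mouse 1 was not apart there. The dimmer 1425385_a_at and 1427851_x_at, which also names Ighv1-72, differed by -0.68 ± 0.24 and -0.51 ± 0.06. Of the 15 Ighm probe sets, 6 were lower in all 3 mice and 8 exceeded background in at least 1 group.

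Bank1, a scaffold protein of B cell receptor signalling, had log2 signals of 5.56, 5.58 and 5.64 in AktI CTL, against 6.67, 6.69 and 6.24 in untreated CTL. All AktI cultures were lower than all untreated ones and all 6 arrays exceeded background. The within-mouse differences were -1.11, -1.11 and -0.60, a mean of -0.94 ± 0.29, so that 46.4%, 46.4% and 65.9% of the untreated signal remained. Unlike Jchain and the light chains, Bank1 was not low in mouse 1, whose untreated culture read 6.67 against 6.69 in mouse 2.

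The receptor chains and other markers of mature B cells showed no such fall, but their untreated signals lay at most 1.05 above background. That maximum was in Cd79b, with Cd22 at most 0.93 and Pax5 at most 0.80 above. A fall as large as that of Jchain could thus not have been measured in full. Cd79b, the beta signalling chain, read 6.25, 6.44 and 6.11 in AktI CTL, against 5.98, 5.92 and 5.88 in untreated CTL, higher with AktI in all 3 mice by 0.34 ± 0.16. It is the 1 probe set of the 32 that was higher in every mouse. Cd79a, the alpha signalling chain, read 5.26, 5.20 and 5.18 with AktI and 5.33, 5.00 and 5.01 without. These signals lie at most 0.40 above background, and the groups overlap. Blk, a Src family kinase of B cells, read 5.40, 5.02 and 5.07 with AktI and 4.83, 5.01 and 5.44 without, at most 0.34 above background. The brighter probe set of Cd22, an inhibitory co-receptor, read 5.72, 5.65 and 5.73 with AktI and 5.85, 5.72 and 5.82 without, lower in all 3 mice by 0.10 ± 0.03. The brighter probe set of Pax5, the factor that holds B cell identity, read 5.46, 5.54 and 5.67 with AktI and 5.72, 5.56 and 5.34 without, a mean difference of 0.01 ± 0.30. The second probe sets of Cd22 and Pax5 were below background in every group.

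Counted over the 32 probe sets, 14 were lower with AktI in all 3 mice, against 20.9% of all probe sets on the array, and 1 was higher in all 3, against 18.6%. Of the 14, 13 exceeded background in some group. Groups did not overlap for 8 lower probe sets (12.1% of all probe sets) and 1 higher (11.4%). In the limma fit over all probe sets, a change was taken to pass where it reached 1.5-fold and its adjusted p was below 0.05, and 2 of the 32 were past that mark as lower (0.739% of all), Bank1 and Igk 1425738_at, with 0 higher (1.2%). With the mouse as a block the count was 6 lower (0.795% of all) and 0 higher (1.21%). Without AktI replicate 1, AktI replicate 3, untreated replicate 2 or untreated replicate 3 it was 1. Since these probe sets were listed with this contrast known, nothing is read from the counts. The median difference was -0.13, against -0.01 over all probe sets.

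The order of the mice was followed as a further description. Among the 19 probe sets above background, mouse 1 was the lowest of both AktI and untreated cultures in 11 (57.9%), against 13% of all probe sets. In 8 of the 19, mouse 2 was also the highest of both, against 3.08% of all probe sets. The shares of all probe sets were not limited to those above background, so the sets compared are unlike. Many of the 19 read the same transcripts, so they do not count as separate cases. With the group means removed, Jchain tracked some other immunoglobulin probe sets over the 6 arrays. The r was 0.98 for Ighm 1427351_s_at, 0.95 for Ighm 1427329_a_at, 0.95 for Iglv1 1430523_s_at, 0.96 for Igkc 1427455_x_at and 0.84 for Igk 1425738_at. Others above background had lower values, with 0.52 for Ighm 1427870_x_at, 0.18 for Ighm 1425247_a_at and 0.15, 0.01 and 0.47 for Igha. Among those below background, Igk 1427757_at had -0.39 and Iglv1 1427292_at -0.95. The same value was -0.09 for Bank1, -0.03 for Cd79b, -0.80 for Cd79a and -0.69 for the brighter Cd22 probe set. Over the 13 T cell markers it ran from -0.85 for the co-receptor chain Cd8a to 0.63 for Cd4, with a median of -0.41 and 9 below 0. The brightest of them, granzyme B (Gzmb), had 0.03. Over 12 genes that support antibody secretion it ran from -0.78 for the receptor Tnfrsf17 to 0.85 for the chaperone Mzb1, with a median of 0.27 and 5 below 0. Over 24 genes of the mature B cell surface and its signalling it ran from -0.88 to 0.90. The median there was -0.08, with 14 below 0. These points are pairs of arrays from only 3 mice.

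**Figure D3:**
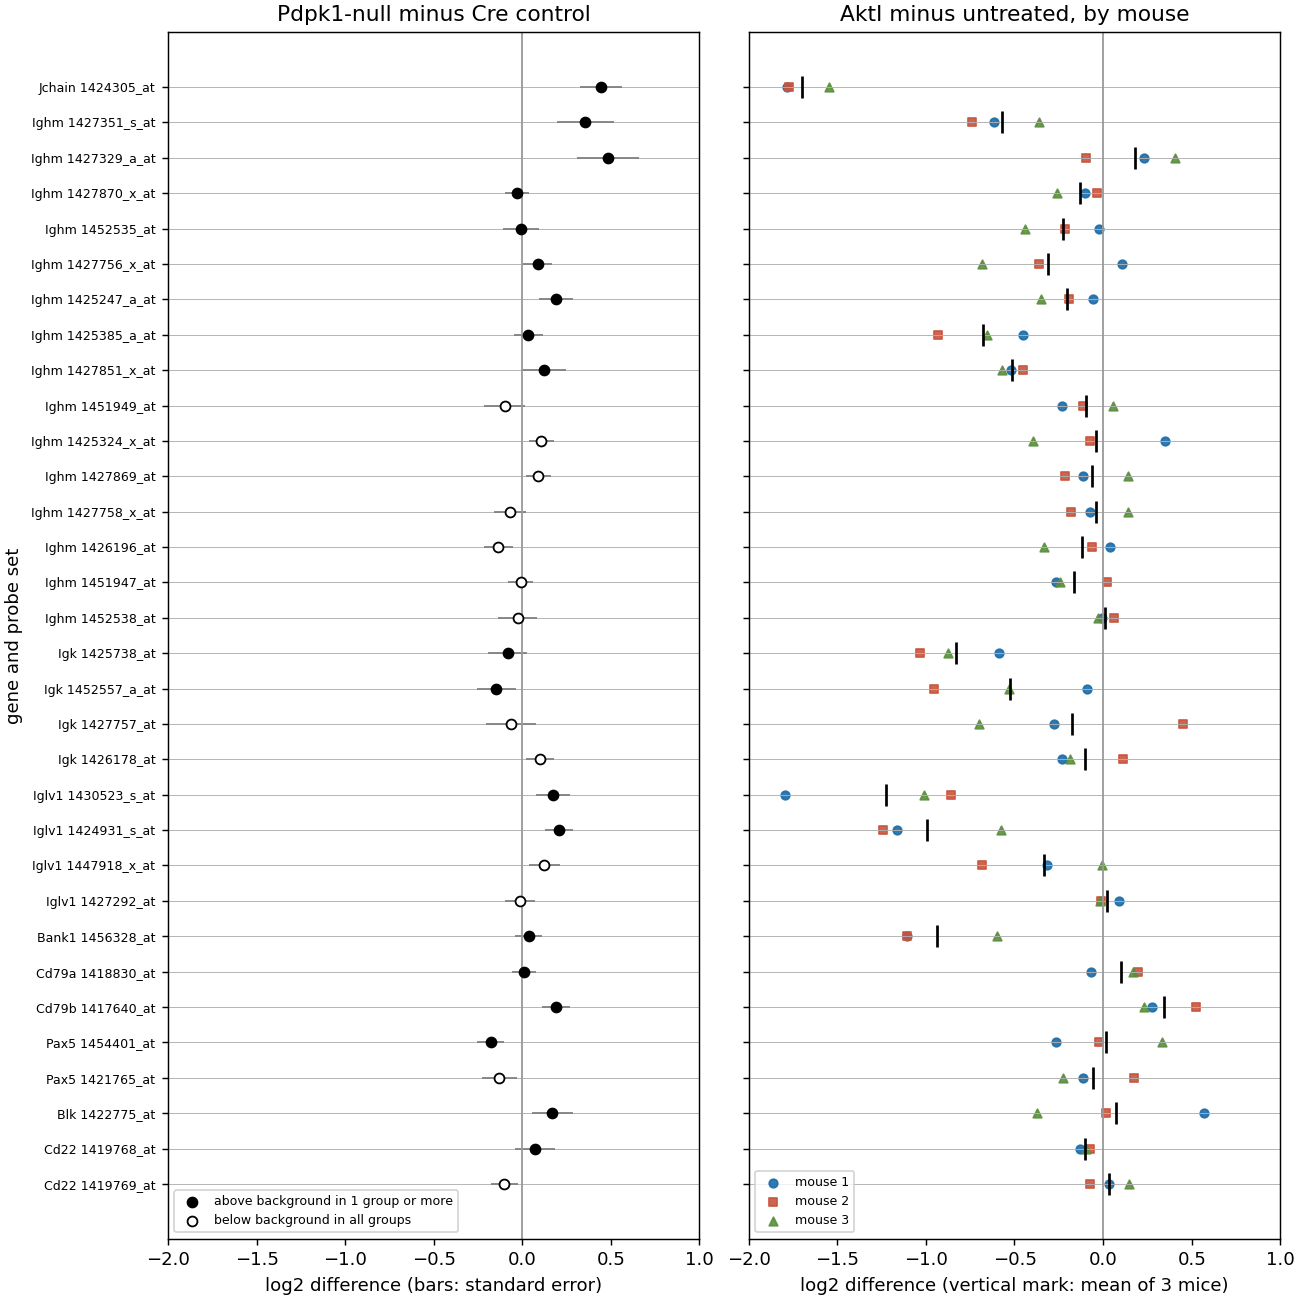
Log2 differences of all 32 probe sets, with Pdpk1-null minus Cre control at left (points with standard errors, open where the probe set was below background in all groups) and AktI minus untreated at right (1 symbol per mouse, vertical mark for the mean). The left panel stays within 0.48 of 0, and the right panel reaches -1.80 for Iglv1 in mouse 1.

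Pdpk1-null CTL were then set against Cre control CTL, a contrast that the listing of the genes is not known to have used. None of the 10 genes passed. Of the 32 probe sets, 0 were higher (0.737% of all probe sets) and 0 lower (0.282%) in limma, with a lowest adjusted p of 0.114. At an unadjusted p under 0.05 there were 4, all higher. The share of all probe sets at that mark was not counted in this contrast, so nothing is read from the 4. The differences ranged up to 0.48, with a median of 0.04 against -0.01 over all probe sets. Groups did not overlap for 6 higher probe sets (9.68% of all) and 0 lower (11.6%).

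Jchain read 3.43, 3.62 and 3.44 in Pdpk1-null CTL, against 3.11, 3.24 and 2.80 in Cre control CTL, with every array at least 0.95 below background. The difference of 0.44 (SE 0.12, adjusted p = 0.114 by limma) therefore compares signals that no array separated from background. The brightest Ighm probe set (1427351_s_at) read 9.96, 9.41 and 9.45 in Pdpk1-null CTL, against 9.38, 9.0 and 9.38 in Cre control CTL, and 1427329_a_at read 9.05, 8.36 and 8.53 in Pdpk1-null CTL, against 8.28, 7.93 and 8.27 in Cre control CTL. Neither pair of groups overlapped, and the differences were 0.36 (SE 0.16, adjusted p = 0.350) and 0.48 (SE 0.17, adjusted p = 0.234). Both were higher where AktI had one of them lower and the other little changed. Cd79b read 5.70, 5.55 and 5.62 in Pdpk1-null and 5.53, 5.42 and 5.35 in Cre control CTL, a difference of 0.19 (SE 0.08, adjusted p = 0.293).

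Bank1, lower with AktI, had a signal of 3.11, 3.22 and 3.24 in Pdpk1-null CTL, against 3.23, 3.06 and 3.16 in Cre control CTL, at least 1.21 below background on every array. The light chain probe sets of Igk and Iglv1 were likewise below background on all 6 arrays. The 3 Igkc probe sets were divided. One of them, 1427660_x_at, exceeded background on all 6 arrays, 1427455_x_at did on all but Pdpk1-null replicate 3, and 1452417_x_at did on none. The signals of 1427455_x_at were 4.90, 5.35 and 4.32 in Pdpk1-null and 4.59, 4.67 and 4.55 in Cre control CTL. Over all 3, signals ran from 2.90 to 6.07 in Pdpk1-null and from 2.54 to 4.97 in Cre control CTL. Signals of Jchain, Bank1, Igk and Iglv1 were thus below background in the Pdpk1 experiment, so a fall of them could not have been measured there. Pax5 1454401_at read 5.03, 5.08 and 5.19 in Pdpk1-null and 5.36, 5.18 and 5.30 in Cre control CTL (difference -0.18, SE 0.08, adjusted p = 0.329), and Cd79a, Blk and the brighter Cd22 probe set stayed within 0.37 of background on all 6 arrays.

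The rest of the immunoglobulin loci comprises 33 probe sets, 12 of them above background in some group. With AktI, 25 had a lower mean, against 53.4% of all probe sets, and 17 were lower in all 3 mice, against 20.9%. By limma 0 passed as lower (0.739% of all) or higher (1.2%), while 12 were lower (8.86%) and 1 was higher (8.81%) before adjustment (p below 0.05). With the mouse as a block, 6 were lower past the threshold (0.795%). They read the same loci as the listed genes, so this is not separate support. Among variable segments, Igkv8-30 (1452463_x_at) read 6.24, 8.41 and 7.90 with AktI and 8.15, 9.94 and 9.24 without. Igkv9-120 (1460423_x_at) read 3.68, 5.51 and 5.32 with AktI and 5.37, 7.02 and 6.00 without, with AktI mouse 1 at 1.38 below background. Its probe set 1452536_s_at, above background on all 6 arrays, differed by only -0.17. Of the 33, 3 were higher in all 3 mice (18.6% of all probe sets). Among them were Igkv9-120 1427750_at (0.11) and Ighv14-2 (0.49), both below background. Igha, the alpha heavy chain, differed from Igkv8-30. Its probe set 1421653_a_at read 6.08, 6.11 and 6.15 with AktI and 5.97, 6.22 and 5.61 without, a difference of 0.18 (SE 0.14, adjusted p = 0.570).

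In the Pdpk1 experiment 2 of the 33 passed, both higher and both of Igha. The first, 1421653_a_at, read 6.93, 6.54 and 6.77 in Pdpk1-null CTL, against 6.00, 5.70 and 5.79 in Cre control CTL, a difference of 0.91 (SE 0.12, adjusted p = 0.0107). The second, 1425763_x_at, read 6.91, 6.75 and 6.79 in Pdpk1-null CTL, against 6.32, 5.87 and 6.20 in Cre control CTL, a difference of 0.69 (SE 0.12, adjusted p = 0.0290). The remaining Igha probe set, 1429381_x_at, did not pass. Without Cre control replicate 2, Cre control replicate 3 or Pdpk1-null replicate 3 neither probe set passed, and without Pdpk1-null replicate 1 only the first did.

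Other genes of the lineage were taken from 4 lists of 51 measured genes, each gene by its brightest probe set. With AktI 6 rose and 1 fell, and in Pdpk1-null CTL 4 rose and 0 fell. Of all genes, 1.51% rose and 1.03% fell with AktI, and 1.01% rose and 0.357% fell in Pdpk1-null CTL. Leaving out Cre control replicate 2 or Pdpk1-null replicate 1 reduced these 4 to 1, and leaving out Pdpk1-null replicate 3 gave 1 higher and 1 lower.

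Of 24 measured genes of the mature B cell surface and its signalling, 10 exceeded background on all 3 arrays in Pdpk1-null, 11 in Cre control, 10 in AktI and 9 in untreated CTL. Several defining B cell genes were not among them. Ms4a1, which encodes CD20, read 3.87, 3.79 and 3.92 with AktI and 3.79, 4.03 and 3.84 without, below background on every array. Ebf1, the factor that sets up the lineage, and Cr2, Fcer2a, Cd180, Spib and Blnk were likewise below background on all 12 arrays. Other members of the list, Vpreb3, Cd40, Pou2f2, Ralgps2, Bcl11a and Fcmr, exceeded background on all 12 arrays. Cd72, an inhibitory receptor of the B cell surface, was 1.37 to 3.16 above background on all 12 arrays. It read 7.74, 7.69 and 7.70 with AktI and 8.06, 8.07 and 8.02 without, groups that did not overlap, a difference of -0.34 (SE 0.06, adjusted p = 0.0175, under the 1.5-fold minimum). Its value was 0.38 (SE 0.12, adjusted p = 0.172) in Pdpk1-null CTL. Tnfrsf13c went the other way with AktI, reading 5.41, 5.73 and 5.45 against 5.19, 4.84 and 4.86 without, groups that did not overlap. Its difference was 0.57 (SE 0.12, adjusted p = 0.031 by limma), also under the 1.5-fold minimum, and untreated signals exceeded background in mouse 1 only. A single member of this list passed, Bach2, a repressor used by both B and T cells. It read 8.69, 8.50 and 8.57 with AktI and 7.49, 7.43 and 7.39 without, a difference of 1.15 (SE 0.07, adjusted p = 1.29e-04). In Pdpk1-null CTL it read 7.85, 7.60 and 8.0, against 6.73, 6.62 and 6.79 in Cre control CTL, a difference of 1.10 (SE 0.11, adjusted p = 0.00373). The brightest, Tnfrsf13b, a receptor for the survival factors BAFF and APRIL, passed in neither comparison. The list medians were -0.02 with AktI and 0.03 in Pdpk1-null CTL.

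Of 12 genes that support antibody secretion, Irf4 rose and Prdm1 fell with AktI. Both factors drive plasma cell formation and both also act in effector T cells. Irf4 read 10.75, 10.75 and 10.62 with AktI and 9.30, 9.57 and 9.45 without, a difference of 1.26 (SE 0.08, adjusted p = 1.64e-04). Prdm1 read 6.57, 6.57 and 6.54 with AktI and 7.22, 7.37 and 7.20 without, a difference of -0.70 (SE 0.07, adjusted p = 0.00104). In the Pdpk1 experiment Irf4 rose by 0.84 (SE 0.12, adjusted p = 0.0169), a call lost without Cre control replicate 2, Pdpk1-null replicate 1 or Pdpk1-null replicate 3, while Prdm1 differed by -0.64 (SE 0.19, adjusted p = 0.160). The brightest, Xbp1, which expands the secretory pathway, read 11.61, 11.67 and 11.75 with AktI and 11.60, 11.59 and 11.63 without. Mzb1, the member with the highest r with Jchain, read 5.64, 6.32 and 5.91 with AktI and 6.17, 6.70 and 6.29 without. It was lower in each mouse, by -0.53, -0.37 and -0.38, a mean of -0.43 ± 0.09 (SD). The limma fit that does not pair the mice gave SE 0.18 and adjusted p = 0.275. With the mouse as a block, limma gave adjusted p = 0.0246. Mzb1 stayed under the 1.5-fold minimum in both fits. In Pdpk1-null CTL it read 5.00, 5.42 and 6.10, against 6.21, 6.32 and 6.45 in Cre control CTL, a difference of -0.82 (SE 0.24, adjusted p = 0.137). Tnfrsf17, the plasma cell receptor BCMA, was below background on all 12 arrays. The medians were -0.14 with AktI and -0.21 in Pdpk1-null CTL.

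None of the 6 measured genes of B cell progenitors passed in either comparison. Before adjustment (limma p below 0.05), 0 were higher (8.81% of all probe sets) and 1 lower (8.86%) with AktI. The lower one was Dntt, with a difference of -0.51 (SE 0.08, adjusted p = 0.0096 by limma), under the 1.5-fold minimum. Its groups did not overlap, and its AktI signal exceeded background on 1 array. In Pdpk1-null CTL 2 were higher and 1 lower. The share at that mark was not counted for Pdpk1-null CTL, so nothing is read from those counts. The brightest was Cd93. Of 9 MHC class II genes, which B cells, dendritic cells and macrophages share, 4 rose with AktI (1.51% of all genes) and 0 fell (1.03%). These were H2-Ob (1.33, SE 0.17, adjusted p = 0.00315), H2-DMa (1.14, SE 0.16, adjusted p = 0.00532), H2-Oa (0.79, SE 0.08, adjusted p = 0.00145) and H2-DMb2 (0.66, SE 0.09, adjusted p = 0.00570). They encode the chains of DM and DO, which load peptide and control that loading, and H2-Ob exceeded background on just 1 array. H2-DMa (0.60, adjusted p = 0.0398) and H2-Oa (0.64, adjusted p = 0.0146) also rose in Pdpk1-null CTL, H2-DMa losing its call without any 1 of 4 arrays and H2-Oa without any 1 of 3. Cd74, the invariant chain, read 6.52, 6.46 and 6.56 with AktI and 6.82, 7.13 and 6.73 without (difference -0.38, adjusted p = 0.0839). The presenting chain H2-Ab1 read 6.58, 6.47 and 6.85 with AktI and 7.08, 7.18 and 7.16 without (difference -0.51, adjusted p = 0.0239, under the 1.5-fold minimum). The presenting chains H2-Aa and H2-Eb1 differed by -0.04 (adjusted p = 0.940) and -0.08 (adjusted p = 0.664).

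**Figure D4:**
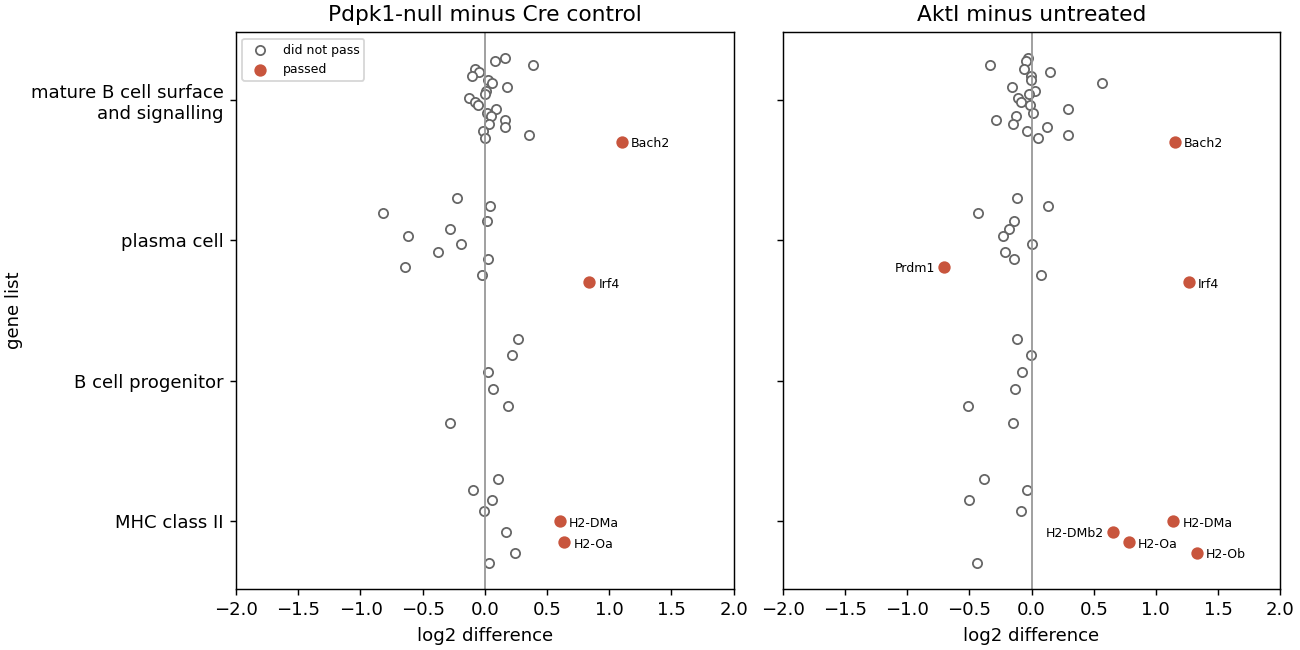
Log2 difference of each measured gene of 4 B lineage lists, Pdpk1-null minus Cre control at left and AktI minus untreated at right, with filled points for genes that passed. Most genes lie close to 0, Bach2 and Irf4 lie above 0.8 in both panels, and Prdm1 is the 1 filled point below 0.

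Markers of other cells were read beside these values. The 13 T cell markers had a median difference of -0.06 with AktI, where Prf1, the pore-forming perforin, fell by 2.20 (SE 0.15, adjusted p = 1.64e-04) and 0 rose, and of -0.08 in Pdpk1-null CTL, where Cd2, an adhesion receptor of T cells, rose by 0.67 (adjusted p = 0.0151). Their summed linear signal was 59429 to 62320 in AktI and 66828 to 71167 in untreated CTL. Over the same arrays the summed signal of the 32 listed probe sets was 3355 to 5796 in AktI and 4342 to 8632 in untreated CTL. The sums are unlike, since each T cell gene entered by its brightest probe set while the 32 include 15 of Ighm. The T cell sum also holds Prf1 and Gzmb, which was lower with AktI by 0.34. Neither sum gives an amount of T or B cell RNA. Of 10 myeloid markers 3 exceeded background in AktI and 3 in untreated CTL, and 4 each in Pdpk1-null and Cre control CTL. Csf1r, Cd68 and Fcgr3 did so in every group and Cd14 in the Pdpk1 experiment only. Lyz2, S100a8, S100a9 and Adgre1 did in no group. Cd68, a lysosomal protein of macrophages, fell with AktI by 1.30 (SE 0.19, adjusted p = 0.00563), and Fcgr3, a receptor for IgG, rose in Pdpk1-null CTL by 0.91 (SE 0.18, adjusted p = 0.0486). None of 5 dendritic cell markers passed in either comparison, and the brightest, Itgax, which encodes the integrin CD11c, differed by -0.16 with AktI and 0.01 in Pdpk1-null CTL. Mcpt8, a basophil protease, fell with AktI by 1.09 (SE 0.25, adjusted p = 0.0465), and Klre1, a receptor of NK cells and some CTL, rose in Pdpk1-null CTL by 0.80 (SE 0.16, adjusted p = 0.0462). The AktI signals of Mcpt8 lay 0.29 and 0.40 below background in mice 1 and 2, so its fall could not be measured in full there. Each of the calls of Cd2, Fcgr3, Klre1 and Mcpt8 was lost without any 1 of several arrays, namely Cre control replicate 2 or 3 or Pdpk1-null replicate 1 or 3 for Cd2, Cre control replicate 1 or 3 or Pdpk1-null replicate 1 or 3 for Fcgr3, any Cre control replicate or Pdpk1-null replicate 1 for Klre1, and AktI replicate 1 or 2 or any untreated replicate for Mcpt8. The erythroid markers Hba-a1 and Alas2 did not exceed background on all arrays of any group. Whether RNA of such cells had a part in the B lineage values was not tested.

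The genes whose brightest probe set was most like Jchain over the 6 Akt arrays were Ube2d3 (r = 0.994), Igkv8-30 (0.994), Rpl7l1 (0.991), Tvp23b (0.990), Mief2 (0.989), Ostc (0.989), Lrrc40 (0.988), Kcne4 (0.987), Cyp2g1 (0.986) and Plk2 (0.986). Over 12 arrays with group means removed they were Fbrsl1 (0.966), Kif27 (0.962), Igkv8-30 (0.961), Znrf4 (0.951), Kcne4 (0.950), Selenof (0.935), Pygm (0.933), Aknad1 (0.932), Eif3i (0.920) and Cyp2g1 (0.915). Igkv8-30, a kappa variable segment, was the 1 immunoglobulin gene in both sets. The values were picked as the highest of 18193 genes over 6 or 12 arrays and are descriptions with no test. In every group the mean signals of Kif27, Cyp2g1 and Kcne4 lay under the lowest background. Jchain, below background in the Pdpk1 experiment, had SDs of 0.11 in Pdpk1-null and 0.23 in Cre control CTL. They were 1.10 in AktI and 1.05 in untreated CTL, so the values over 12 arrays rest mostly on the 3 mice of the Akt experiment.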

How the data were processed

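RNA of 12 CTL cultures was hybridized to Affymetrix GeneChip mouse genome arrays, 1 array per culture. The deposited values are log2 signals that the authors obtained with the robust multichip averaging algorithm as implemented in Expression Console 1.1 (Affymetrix). This corrects background, gives arrays a common distribution and condenses the probes of a set into 1 value, which compresses low signals and can hide a shift shared by all transcripts. A genome build is not given in the sources used here. The signals were used as deposited. Of 45101 probe sets, 64 controls were left out. Of the remaining 45037, 34945 name 1 gene, 932 several and 9160 none in the platform annotation, and names were kept as given there. Of the 32 probe sets of the 10 genes, 27 name 1 gene and 5 several, and 9 end in _s_at or _x_at, the suffixes of probe sets with probes shared by several transcripts.

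Each experiment was fitted on its own 6 arrays with limma 3.58.1 (lmFit and eBayes) in R 4.3.3, with Benjamini-Hochberg adjustment over all 45037 probe sets. This main fit does not pair the AktI and untreated cultures of a mouse, so its SE and p take in the spread between mice. A change passed where the adjusted p was under 0.05 and the change at least 1.5-fold. The study's own test, SAM, was not run here. All p-values in the report come from limma and are adjusted unless said otherwise. Signals were called above background where they exceeded the 95th percentile of 80 receptor probe sets on all 3 arrays of a group. The 10 genes, the lists of other genes and the rule for naming genes were chosen with earlier results of these data known. The rule named all 10 genes and, from each other list, up to 4 genes that passed with the largest change and the brightest gene. Other genes named outside the rule (Igkc, Igha and variable segments, Mzb1, Cd72, Tnfrsf13c, Dntt, Cd74, H2-Aa, H2-Ab1, H2-Eb1, Cd4, Cd8a and markers named only for their signal against background) were chosen after their values were seen. Differences within mice are AktI minus untreated for the mouse that the labels number 1, 2 or 3. The labels say that each mouse's cells were divided between the treatments, and deviations from the group means correlated within mice 1, 2 and 3 with r = 0.17, 0.0343 and 0.0607, against -0.102 to 0.0383 between mice. Pdpk1-null and Cre control replicates share only a number.

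The fit was tested on simulated arrays before use. Precision is limited by the 3 arrays of a group, each from another mouse by the labels' biological replicates. Promoter sequences are those of RefSeq on GRCm38.p6; figures were drawn with matplotlib 3.10.9 in Python 3.11.15. Alternatives were another normalization, a filter on dim probe sets, another variance model, 1 model over 12 arrays, other fold minimums and backgrounds, the replicate block and leaving out each array.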

Additional observations from a re-analysis of the deposited data

How the results depend on the processing

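With 32 probe sets of the listed genes, 2 passed in the AktI comparison; 4 did with 1 model over 12 arrays, 6 with the replicate block, 0 at a 2-fold minimum, and 1 to 3 when 1 array was left out. The 7 of 51 other B lineage genes became 11 with no fold minimum and 4 at 2-fold in the AktI comparison, and the 4 in the Pdpk1 comparison became 1 at 2-fold and 1 to 4 when 1 array was left out. For the other immunoglobulin probe sets, the 2 that passed over both comparisons became 4 with 1 model over 12 arrays, 8 with the replicate block, 0 at 2-fold, and 0 to 4 when 1 array was left out. The 19 probe sets above background became 7 at the 99th percentile of the receptors and 20 at the 90th. In the Pdpk1 comparison 0 of the 32 passed under any alternative, including quantile normalization, arrays shifted to 1 median, trend and robust settings and no dim probe sets. An alternative chosen after the data had been seen, without probe sets that name several genes or match several transcripts, gave 2 in the AktI comparison and 0 in the Pdpk1 comparison. The replicate block pairs the AktI and untreated cultures of a mouse, whereas Pdpk1-null and Cre control replicates share only a number, with r of 0.0496, 0.03 and -0.011 within numbers and -0.074 to 0.041 between them; there it left the counts at 0 for the listed genes and 4 for the other B lineage genes, took the calls of Fcgr3 (adjusted p = 0.113) and Klre1 (adjusted p = 0.0786) and added Prf1 (adjusted p = 0.0431). Beyond the counts of listed genes and immunoglobulin probe sets given above, it changed no other call of a named gene. Of 801 recomputed differences of single probe sets 16 changed sign, each on leaving out 1 array and none of them a call. In the Pdpk1 comparison, leaving out 1 array gave ranges of -0.121 to 0.0646 for Ighm 1452535_at, -0.0090 to 0.106 for Ighm 1425385_a_at, -0.209 to 0.0046 for Igk 1425738_at, -0.0091 to 0.0785 for Bank1, -0.0132 to 0.037 for Cd79a, -0.0483 to 0.151 for Cd22 1419768_at and -0.0657 to 0.465 for Mcpt8. In the AktI comparison the values after the change were -0.0900 for Ighm 1427329_a_at, -0.0446 and -0.0859 for Pax5 1454401_at, and -0.0450 and -0.0605 for Blk. The cause of these changes was not tested, except that a fold minimum changes a count by construction. Signals below background set the limit in the Pdpk1 experiment, since those of Jchain, Bank1, Igk and Iglv1 could not have been measured to fall there.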
